A study of Ambystoma mexicanum with 9 samples.

Results

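Injured axolotl spinal cord from animals that had received ivermectin (1dpi_IVM) was compared with uninjured spinal cord (0dpi), in order to describe the differences that remained between them and those that lay beyond the uninjured level. The comparison used 6 of the 9 arrays of the series, 3 in each group, and all 20035 of the 20080 probe sets that were not array controls. The 3 arrays of injured cord without the drug (1dpi) were in the same model and are given beside each gene only to place it. Each array of the custom Affymetrix axolotl chip Amby002 measured 150 ng of total RNA, pooled from 10 animals of 2 to 3 cm in body length. No genotype, strain, sex or age is given in the labels. According to the text of the series, ivermectin in a solution colored with Fast Green was pressure-injected into the central canal, a piece of the cord was then cut out, and the wound area was collected 1 day later. The sample label of 1dpi_IVM names the injection and not the injury. The label of 1dpi calls the injury a crush, while the series text describes removal of tissue after an injection of water. The 0dpi animals are not described as injected, so the injection, the injury and the drug cannot be told apart in the differences between 1dpi_IVM and 0dpi. The arrays carry no record of a batch in the labels.

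The axolotl is a salamander that rebuilds its spinal cord after injury, and the ependymoglial cells that line the central canal divide to supply the new tissue. Ivermectin opens glycine-gated chloride channels and so changes the membrane potential of cells that carry them. In vertebrate wounds, immediate early transcription factors such as FOS rise first, followed by inflammatory signals, enzymes that cut the extracellular matrix and, later, the cell cycle.

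Values are log2 signals, so a difference of 1 is a 2-fold difference. Array medians lay between 5.84 and 5.90, and arrays of 0dpi and 1dpi_IVM correlated across probe sets with an r of 0.996 to 0.997, against 0.997 to 0.998 between arrays within these groups. These r describe the arrays and carry no test, since probe sets are not independent. The tissue held more than cord. Of the marker genes measured, neuronal (8), ependymoglial (5), muscle (7), epithelial (5), cartilage (5), fibroblast (5) and leukocyte (6) genes all gave signal in 0dpi, apart from the neuronal gene SYT1, which lay below the negative controls. The summed signal of the leukocyte markers was 11.21 to 11.26 in 0dpi and 11.01 to 11.18 in 1dpi_IVM, that of endothelium 9.63 to 9.67 and 9.39 to 9.49, that of erythrocytes 8.98 to 9.02 and 8.71 to 8.73, and that of neurons 11.41 to 11.46 and 11.71 to 11.72. That of epithelium was 14.89 to 14.92 in 0dpi and 14.85 to 14.86 in 1dpi_IVM, and that of cartilage 13.38 to 13.44 and 13.34 to 13.35. Thus 5 sums were lower in every 1dpi_IVM array and that of neurons higher. The groups also did not overlap in 23.1% of all probe sets. For leukocytes, epithelium and cartilage the gap between groups was smaller than the shift of 0.10 from the poly-A spike-ins given below. The sums of muscle, fibroblasts, ependymoglia and oligodendrocytes overlapped between the groups. In such bulk tissue, fewer cells of a type and less RNA per cell cannot be told apart. Each sum that differed also holds genes called below (such as ALAS2, VWF and NEFM), so the sums are not separate from those calls. The scale of the comparison is also not absolute. The poly-A spike-ins were lower by 0.10 in 1dpi_IVM (exact permutation test, two-sided p = 0.1, the smallest that 3 against 3 arrays allow) and the hybridization controls higher by 0.13 (p = 0.3). Centring the arrays on these controls would shift every difference by 0.10 or by -0.13. All directions, of the sums above and of the genes below, thus hold only relative to the bulk of the probe sets. In 1dpi the poly-A spike-ins averaged 8.08, against 7.54 in 0dpi, and centring on them would shift every difference of 1dpi against 0dpi by -0.55, and centring on the hybridization controls by -0.16. The place of the 1dpi arrays beside 0dpi and 1dpi_IVM, given for each gene below, thus also holds only on the deposited scale.

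Few probe sets differed between 1dpi_IVM and 0dpi, and most of those differed little. In limma, 1122 of 20035 probe sets were called at an adjusted p below 0.05 (5.6%), 452 of them higher in 1dpi_IVM (2.26%) and 670 lower (3.34%). The median size of a called difference was 0.35 on the log2 scale (1.27-fold), and the smallest was 0.17. In all 1122 the values of the groups did not overlap, as in 23.1% of all probe sets. A difference of 1.5-fold or more was found in 148 called probe sets (13.2%), and one of 2-fold or more in 32 (0.16% of all tested), of which 7 were higher and 25 lower. For the 1dpi arrays against 0dpi the same model called 10597 probe sets (52.9%), of which 3715 differed by at least 1.5-fold and 1426 by at least 2-fold (7.12%). The median standard error of a difference was 0.07 in both. It is equal by construction, since both come from 1 model with a shared estimate of the spread and 3 arrays in each group. Both comparisons use the same 0dpi arrays, and for this reason each gene's values are given side by side, with no overlap between the comparisons.

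**Figure D1:**
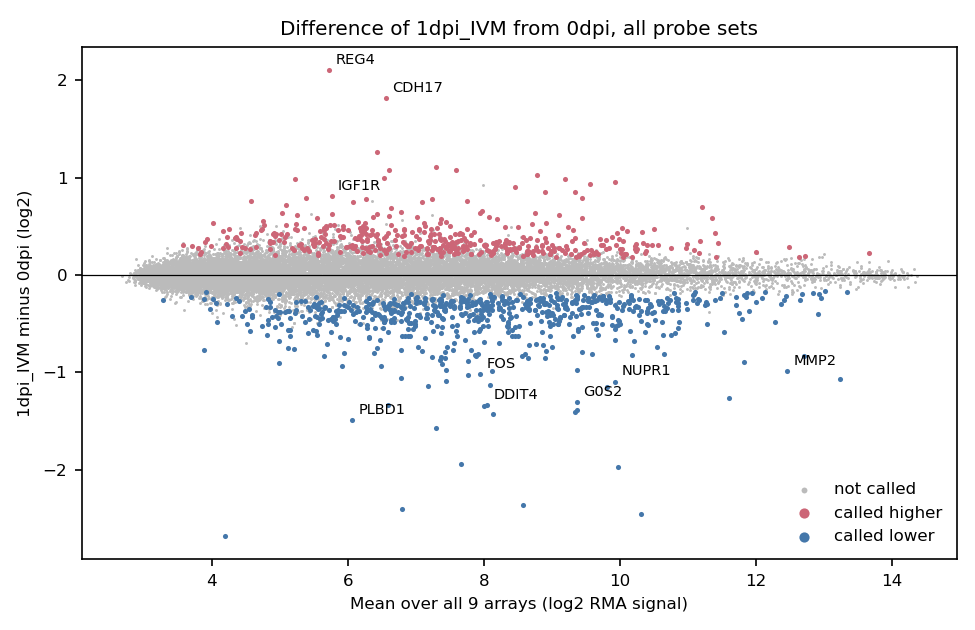
The log2 difference of 1dpi_IVM minus 0dpi (vertical axis) against the mean log2 signal over all 9 arrays (horizontal axis), 1 point per probe set, with called probe sets in color and some genes named. Most of the 20035 points lie close to 0, and more of the large differences are falls than rises.

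**Figure D2:**
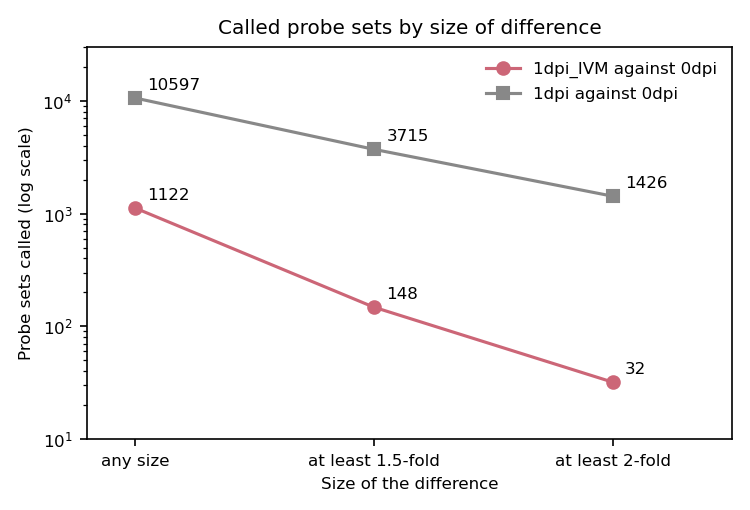
The number of called probe sets (vertical axis, log scale) of any size, of at least 1.5-fold and of at least 2-fold (horizontal axis), for 1dpi_IVM against 0dpi (1122, 148 and 32) and for 1dpi against 0dpi (10597, 3715 and 1426).

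The calls split into 504 genes (5.83% of 8639, with 187 higher, or 2.16%, and 317 lower, or 3.67%), each shown by its brightest probe set, 107 further probe sets of named genes, and 511 probe sets without a gene symbol. Each list count below is to be read beside these shares of all genes (2.16% higher and 3.67% lower). In 1dpi against 0dpi, 25.3% of all genes were called higher and 29.5% lower. Rises depended more on single arrays than falls. Of the 504 called genes, 243 kept their call without each array in turn, 61 of the 187 that were higher and 182 of the 317 that were lower. The number of probe sets called higher was 300 without 0dpi replicate 1, 218 without 0dpi replicate 2, 289 without 0dpi replicate 3, 237 without 1dpi_IVM replicate 2 and 272 without 1dpi_IVM replicate 3. The number called lower was 422 without 0dpi replicate 2. The genes given with full values below kept their calls without each array unless stated otherwise. Centring on the poly-A spike-ins called 1609 probe sets higher and 343 lower (82.4% higher, against 40.3%), and centring on the hybridization controls 46 and 527 (8.03% higher). These centrings shift all differences by 0.10 and -0.13, less than the smallest called difference (0.17), so no called gene could change direction. Most rises of about 0.5 or less lost their call with the hybridization controls.

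The largest falls among named genes included genes of growth control and glucose uptake, and for these the 1dpi_IVM arrays lay below uninjured cord while the 1dpi arrays lay far above it. DDIT4, which restrains the growth kinase mTOR under stress, measured 7.51, 7.56 and 7.62 in the 0dpi arrays, 6.08, 6.38 and 6.21 in 1dpi_IVM, and 10.46, 10.37 and 10.21 in 1dpi. It was 2.52-fold lower in 1dpi_IVM than in 0dpi (log2 -1.34 ± 0.09, SE, n = 3 arrays per group, adjusted p = 1.47e-05). SLC2A1, the glucose transporter GLUT1, measured 9.33, 9.42 and 9.41 in 0dpi, 8.36, 8.17 and 8.18 in 1dpi_IVM, and 11.73, 11.87 and 11.78 in 1dpi. Every 1dpi_IVM array lay below every 0dpi array for both genes, and SLC2A1 was 2.22-fold lower (-1.15 ± 0.06, adjusted p = 6.76e-06), with -0.75 at its other probe set. G0S2, an inhibitor of the fat-cleaving enzyme ATGL, measured 9.17, 9.08 and 9.17 in 0dpi, 7.70, 7.87 and 7.94 in 1dpi_IVM, and 11.23, 11.09 and 11.09 in 1dpi, a 2.47-fold fall against 0dpi (-1.31 ± 0.07, adjusted p = 5.08e-06). In the list of glycolysis and hypoxia genes, however, 3 of 25 were lower (SLC2A1, DDIT4 and PFKFB1) and 0 higher, with a list median of -0.05 against 0.009 over all genes. The call of PFKFB1 (-0.24) did not hold without 0dpi replicate 2 (adjusted p = 0.0575). In 1dpi against 0dpi, 13 of these 25 genes were called higher and 3 lower, where 25.3% of all genes were called higher and 29.5% lower.

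A list of genes known to respond to steroid hormones, feeding or growth arrest showed the largest number of falls among the lists. Of 21 measured members, 9 were lower and 0 higher, with a median of -0.17, which stayed below 0 under both control centrings (-0.07 and -0.30). Among all genes, 3.67% were lower. This list was chosen with the falls of some of its members known. DDIT4, given above, is among the 9 and is also counted in the list of glycolysis and hypoxia genes, so the 2 counts are not separate. GADD45G, a growth-arrest gene of the DNA damage response, measured 9.64, 9.65 and 9.73 in 0dpi, 8.86, 8.89 and 8.85 in 1dpi_IVM, and 10.23, 10.14 and 10.23 in 1dpi (-0.81 ± 0.05 against 0dpi, adjusted p = 1.05e-05). SESN1, a p53 target that restrains mTOR, measured 6.87, 7.06 and 6.92 in 0dpi, 6.25, 6.09 and 6.17 in 1dpi_IVM, and 8.10, 8.14 and 8.16 in 1dpi (-0.78 ± 0.06, adjusted p = 7.36e-05). Groups did not overlap for either gene. Also lower were TSC22D3, the glucocorticoid-induced leucine zipper (-0.56 ± 0.05, adjusted p = 0.000128), SGK1, a glucocorticoid-induced kinase (-0.46 ± 0.05, adjusted p = 0.000294), and FOXO1, a transcription factor held back by insulin signaling (-0.44 ± 0.08, adjusted p = 0.00841). Lower too were CDKN1B, the cell cycle inhibitor p27 (-0.37 ± 0.05, adjusted p = 0.00258), and GADD45B (-0.56 ± 0.10, adjusted p = 0.0103). In 1dpi these last 2 stood 1.16 and 1.40 above 0dpi. TXNIP, an inhibitor of thioredoxin and of glucose uptake, differed from them in the 1dpi arrays. It measured 12.44, 12.46 and 12.42 in 0dpi and 12.44, 12.46 and 12.46 in 1dpi, and only in 1dpi_IVM did it lie lower, at 11.99, 11.99 and 11.90 (-0.49 ± 0.05, adjusted p = 0.000227).

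Of the immediate early genes, 5 of 15 were lower in the ivermectin-treated cord than in uninjured cord, where 3.67% of all genes were lower. FOS, a partner of JUN in the transcription factor AP-1, measured 7.35, 7.38 and 7.48 in 0dpi, 6.38, 6.46 and 6.31 in 1dpi_IVM, and 10.06, 10.09 and 10.03 in 1dpi. All arrays of 1dpi_IVM were below all arrays of 0dpi, by 2.03-fold on average (-1.02 ± 0.06, adjusted p = 5.69e-06). DUSP1, a phosphatase that switches off MAP kinases, measured 8.53, 8.68 and 8.61 in 0dpi, 7.74, 7.87 and 7.87 in 1dpi_IVM, and 10.32, 10.35 and 10.27 in 1dpi (-0.78 ± 0.06, adjusted p = 4.27e-05). JUNB, also of the AP-1 family (-0.52 ± 0.06, adjusted p = 0.00109), and BTG1, an antiproliferative gene (-0.50 ± 0.04, adjusted p = 0.000132), were lower as well. JUN fell by 0.36 ± 0.07 (adjusted p = 0.0103), and in 1dpi it stood at -0.09 against 0dpi (adjusted p = 0.26). The other 10 measured genes of the list were not called, 0 were higher, and the list median was -0.19. Without each array in turn and under both control centrings the number lower stayed at 5. In 1dpi against 0dpi, 10 of the 15 were called higher and 2 lower (median 0.49), beside 25.3% of all genes higher and 29.5% lower. NFKBIA, the feedback inhibitor of NF-kB, followed the same order of groups, with 8.37, 8.39 and 8.44 in 0dpi, 7.53, 7.79 and 7.72 in 1dpi_IVM, and 10.28, 10.20 and 10.18 in 1dpi (-0.71 ± 0.07, adjusted p = 0.000227). It was the only called gene of 14 in the list of inflammatory cytokines and NF-kB feedback.

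**Figure D3:**
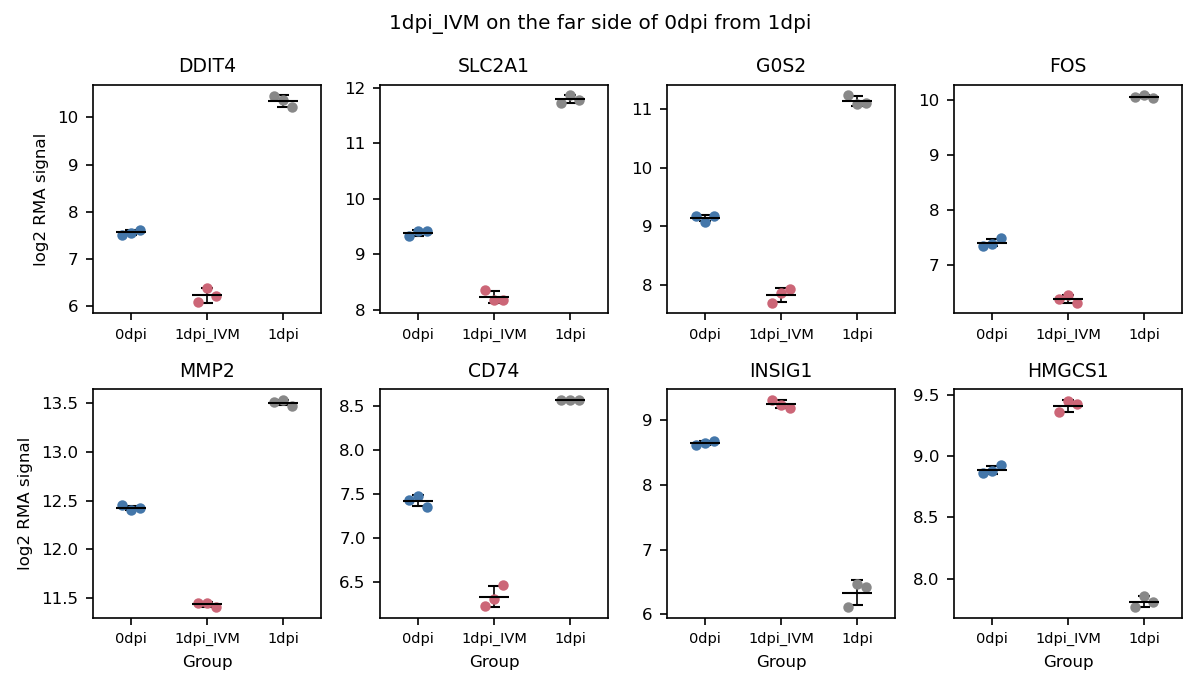
Log2 RMA signal (vertical axis) in each array of 0dpi, 1dpi_IVM and 1dpi (horizontal axis, 3 points each) for 8 genes, with bars for the mean and SD. DDIT4, SLC2A1, G0S2, FOS, MMP2 and CD74 lay lower in 1dpi_IVM than in 0dpi and higher in 1dpi, and INSIG1 and HMGCS1 the reverse. The genes were chosen for this order of groups.

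The metalloproteinases MMP2, MMP19 and MMP14 and the inhibitor TIMP1 were lower in 1dpi_IVM than in 0dpi. MMP2, a gelatinase, measured 12.45, 12.40 and 12.42 in 0dpi, 11.45, 11.45 and 11.41 in 1dpi_IVM, and 13.51, 13.53 and 13.47 in 1dpi. The difference from 0dpi was nearly 2-fold (-0.99 ± 0.04, adjusted p = 1.42e-06), although a dimmer probe set of MMP2 differed by -0.15 and was not called. TIMP1, an inhibitor of such enzymes, measured 12.64, 12.61 and 12.66 in 0dpi, 11.78, 11.82 and 11.83 in 1dpi_IVM, and 13.68, 13.69 and 13.66 in 1dpi (-0.83 ± 0.04, adjusted p = 4.74e-06). MMP19, a further metalloproteinase, measured 7.34, 7.21 and 7.25 in 0dpi, 6.38, 6.42 and 6.47 in 1dpi_IVM, and 8.46, 8.29 and 8.43 in 1dpi (-0.85 ± 0.06, adjusted p = 3.47e-05). MMP14, a membrane-bound activator of MMP2, fell by 0.43 ± 0.07 (adjusted p = 0.00583). A dim probe set of TIMP1 near the negative controls was not called. In the list of extracellular proteases and inhibitors, these 4 of 19 were lower, 14 were not called and 1 was higher (SERPINB1, an inhibitor of neutrophil proteases, 0.30 ± 0.06). The list median was -0.04, with 7 genes above 0 and 12 below. It was 0.06 with the poly-A spike-ins and -0.18 with the hybridization controls, where the number lower stayed at 4. Among all genes, 3.67% were lower and 2.16% higher. Of 26 fibroblast matrix genes, 3 were lower and 0 higher. They were THBS1, a thrombospondin of the matrix (-0.50 ± 0.06, adjusted p = 0.000696), FN1, fibronectin (-0.39 ± 0.06, adjusted p = 0.00389), and THBS2 (-0.35 ± 0.06, adjusted p = 0.00647). Dimmer probe sets of FN1 and THBS2 were not called. In 1dpi, 19 of these 26 matrix genes were called higher than in 0dpi and 3 lower, with a median of 0.82 against -0.10 in 1dpi_IVM.

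Several genes of leukocytes fell. CD74, the invariant chain of MHC class II, measured 7.43, 7.48 and 7.35 in 0dpi, 6.22, 6.30 and 6.46 in 1dpi_IVM, and 8.57 in each 1dpi array, a 2.13-fold fall against 0dpi (-1.09 ± 0.06, adjusted p = 8.81e-06). The 1dpi values of CD74 were identical (SD 0), and they enter the shared spread behind this SE. Why they were identical was not tested. NCF1, a subunit of the phagocyte oxidase, fell by 0.57 ± 0.07 (adjusted p = 0.000806) and in 1dpi stood lower still, at -0.72. SPI1, the transcription factor PU.1 of myeloid cells, fell by 0.41 ± 0.06 (adjusted p = 0.00286), with -0.02 in 1dpi. With CYBA, another oxidase subunit (-0.24), these made 4 of 19 leukocyte markers lower, where 3.67% of all genes were lower. The count stayed at 4 without each array. C1QC, of the complement starter C1q, was the 1 marker called higher (0.22), and its call was lost without each of the 9 arrays. The other 14 markers were not called, and the list median was -0.05. With arrays centred on the poly-A spike-ins 3 markers were lower and 3 higher (median 0.05). With the hybridization controls 3 were lower and 0 higher (median -0.18). The summed leukocyte marker signal was lower in all 1dpi_IVM arrays than in all 0dpi arrays, with a gap smaller than the poly-A shift given above. It includes CD74 and SPI1. The sum is thus not independent of these falls, and its part in them was not tested. PLBD1, a phospholipase B-like protein, showed the largest fall of all named genes, with 6.36, 6.53 and 6.33 in 0dpi, 4.89, 4.97 and 4.90 in 1dpi_IVM, and 6.79, 6.91 and 6.90 in 1dpi (2.81-fold, -1.49 ± 0.06, adjusted p = 1.08e-06). IGLL1, named as an immunoglobulin light-chain-like gene, measured 7.83, 7.82 and 7.84 in 0dpi, 6.38, 6.45 and 6.63 in 1dpi_IVM, and 9.71, 9.66 and 9.66 in 1dpi. It was 2.54-fold lower than in 0dpi (-1.34 ± 0.06, adjusted p = 2.26e-06), and of its other 2 probe sets 1 was called lower (-0.73) and the other was not (-0.14).

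On the deposited scale IRF1, an interferon-induced transcription factor, lay at the uninjured level in the 1dpi arrays and below it with ivermectin. It measured 10.42, 10.39 and 10.51 in 0dpi, 9.73, 9.79 and 9.77 in 1dpi_IVM, and 10.41, 10.42 and 10.46 in 1dpi (-0.67 ± 0.05, adjusted p = 3.72e-05). It was the only called gene among 17 of the interferon response. NUPR1, a small nuclear protein induced by cell stress, had the same pattern with a larger difference, at 10.27, 10.31 and 10.32 in 0dpi, 9.16, 9.21 and 9.25 in 1dpi_IVM, and 10.33, 10.27 and 10.25 in 1dpi. The fall was 2.14-fold (-1.10 ± 0.05, adjusted p = 1.34e-06), while 1dpi differed from 0dpi by -0.02 (adjusted p = 0.78). The same held for ANTXR2, a receptor that binds matrix proteins and anthrax toxin (-0.94 ± 0.07, adjusted p = 4.68e-05), SPSB4 (-0.83 ± 0.13, adjusted p = 0.00532) and LEF1, a transcription factor of the Wnt pathway (-0.75 ± 0.11, adjusted p = 0.00299). In 1dpi these 3 genes differed from 0dpi by -0.17, -0.11 and -0.18, and none of the 3 was called there. A dim probe set of LEF1 was not called. LEF1 was also the only called gene among 43 of the Wnt, Notch and Hedgehog pathways.

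Of the genes that supply serine, one-carbon units and amino acids, 5 of 21 were lower, where 3.67% of all genes were lower. For these 5 the 1dpi arrays lay on either side of the uninjured level. PSAT1, an enzyme of serine synthesis, measured 11.96, 11.98 and 11.95 in 0dpi, 11.31, 11.37 and 11.36 in 1dpi_IVM, and 8.94, 9.00 and 8.92 in 1dpi. The treated cord was thus lower by 0.62 ± 0.05 (adjusted p = 4.27e-05), a small difference beside that of 1dpi (-3.01). MTHFD2, a mitochondrial enzyme of one-carbon metabolism, measured 11.68, 11.68 and 11.69 in 0dpi, 11.05, 11.12 and 11.12 in 1dpi_IVM, and 11.81, 11.82 and 11.81 in 1dpi (-0.58 ± 0.04, adjusted p = 4.68e-05). SLC38A2, a carrier of neutral amino acids (-0.72 ± 0.06, adjusted p = 0.000106), and SLC7A3, a carrier of arginine and lysine (-0.59 ± 0.05, adjusted p = 4.81e-05), were lower too. In 1dpi these carriers stood 0.28 and 0.75 above 0dpi. With SLC3A2, the heavy chain of several amino acid carriers (-0.25), these made up the falls, 0 genes were higher, and the list median was -0.19 (-0.08 and -0.32 under the control centrings). None of the 4 measured aminoacyl-tRNA synthetases was called. DDIT3, the stress transcription factor CHOP, fell by 0.34 ± 0.05 (adjusted p = 0.0042), with -1.03 in 1dpi. XBP1, a transcription factor of the unfolded protein response, fell by 0.37 ± 0.05 (adjusted p = 0.00197), with 0.23 in 1dpi. GRPEL2, a cochaperone of mitochondria, measured 9.14, 9.27 and 9.23 in 0dpi, 8.41, 8.41 and 8.33 in 1dpi_IVM, and 8.03, 8.07 and 8.13 in 1dpi (-0.83 ± 0.05, adjusted p = 1.57e-05). GTPBP2, a GTP-binding protein, measured 10.05, 10.19 and 10.08 in 0dpi, 9.38, 9.35 and 9.23 in 1dpi_IVM, and 8.85, 8.94 and 8.93 in 1dpi (-0.79 ± 0.06, adjusted p = 5.34e-05). For GRPEL2 and GTPBP2, 1dpi_IVM lay between the other groups.

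Other falls lay in lists with few calls or in none. HMOX1, heme oxygenase, which is induced by oxidative stress, and TXNRD2 were the 2 genes lower among 38 of the xenobiotic and oxidative stress response, with 0 higher. These counts lie near the shares of all genes (3.67% lower and 2.16% higher) and say little of the list. HMOX1 fell by 0.55 ± 0.05 (adjusted p = 0.000142), against a value of 1.38 above 0dpi in 1dpi. NUAK1, a kinase related to AMPK (-0.93 ± 0.06, adjusted p = 1.71e-05), LEP, the hormone leptin (-0.86 ± 0.07, adjusted p = 5.46e-05), and PLEK2, a pleckstrin (-0.98 ± 0.06, adjusted p = 1.57e-05), were lower. In 1dpi these 3 stood 1.32, 0.94 and 0.20 above 0dpi. Below 0dpi in both groups were HIF3A, of the hypoxia-inducible factor family (-0.70 ± 0.08 in 1dpi_IVM and -0.22 in 1dpi), NOXO1, an organizer of an NADPH oxidase (-0.64 ± 0.08 and -1.68), TXNRD2, the mitochondrial thioredoxin reductase (-0.77 ± 0.12 and -0.74), and CYP4F22, which acts in skin lipid synthesis (-0.63 ± 0.06 and -0.48). NFIL3, a repressor with clock functions, was the only called gene of 9 circadian genes (-0.52 ± 0.04, adjusted p = 9.52e-05).

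Rises were fewer, and 2 genes stood above all others. REG4, a secreted lectin known from the mammalian gut, measured 4.49, 4.33 and 4.23 in 0dpi, 6.42, 6.44 and 6.49 in 1dpi_IVM, and 6.34, 6.54 and 6.29 in 1dpi. It was 4.30-fold higher in 1dpi_IVM than in 0dpi (2.10 ± 0.08, adjusted p = 5.56e-07), and the arrays of 1dpi_IVM and 1dpi overlapped. CDH17, a cadherin of mammalian intestinal epithelium, measured 4.83, 4.72 and 4.92 in 0dpi, 6.70, 6.67 and 6.56 in 1dpi_IVM, and 8.20 in each 1dpi array. The 1dpi values were nearly identical (SD 0.0008), and they enter the shared spread behind the SE. CDH17 was 3.52-fold higher in 1dpi_IVM than in 0dpi (1.82 ± 0.06, adjusted p = 2.15e-07), between the levels of 0dpi and 1dpi. These were the 2 called genes among 10 of an intestine-type list that had been drawn up with their values known, and the list median was 0.002. Neither call depended on an array or a centring.

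**Figure D4:**
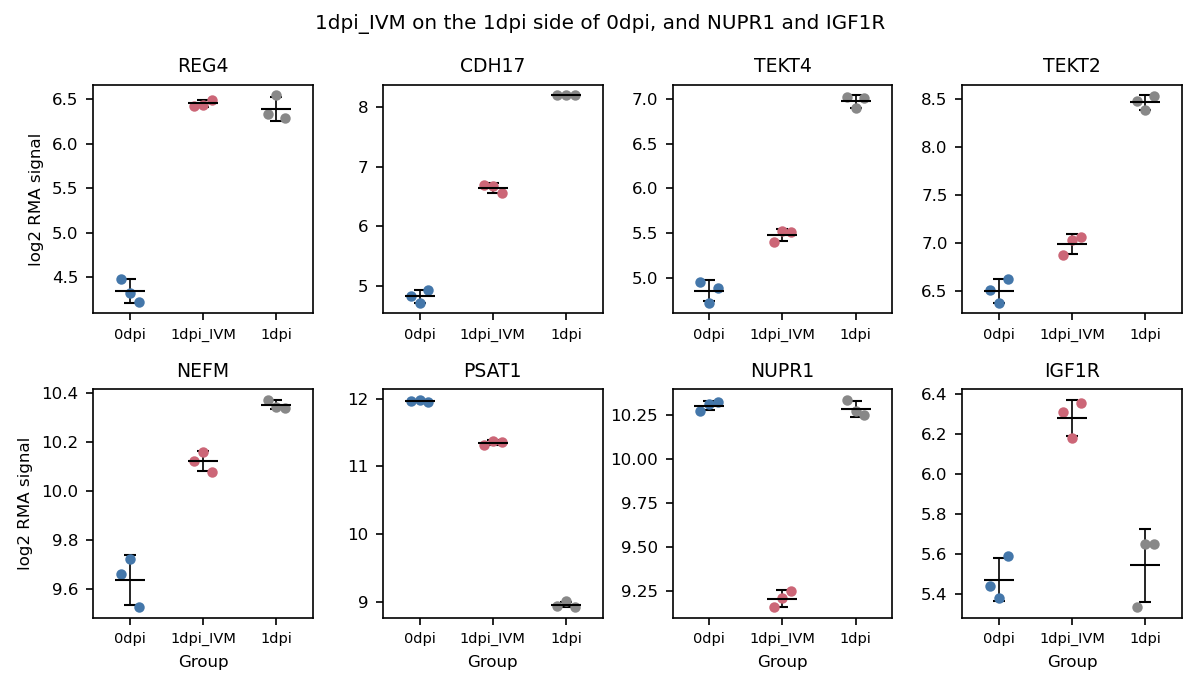
Log2 RMA signal (vertical axis) in each array of 0dpi, 1dpi_IVM and 1dpi (horizontal axis, 3 points each) for 8 genes, with bars for the mean and SD. For REG4, CDH17, TEKT4, TEKT2, NEFM and PSAT1 the 1dpi_IVM arrays lay on the 1dpi side of 0dpi. For NUPR1 and IGF1R the 0dpi and 1dpi arrays overlapped and 1dpi_IVM stood apart.

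IGF1R, the receptor of insulin-like growth factors, was the rise with the largest difference among genes whose 1dpi arrays were near the uninjured level on the deposited scale. It measured 5.44, 5.38 and 5.59 in 0dpi, 6.31, 6.18 and 6.35 in 1dpi_IVM, and 5.33, 5.65 and 5.65 in 1dpi (1.75-fold, 0.81 ± 0.09, adjusted p = 0.000806). Among the 34 growth factor ligands and receptors it was joined by EREG, an EGF-family ligand (0.22, not called without 1dpi_IVM replicate 2, adjusted p = 0.0794), while BDNF (-0.43 ± 0.07), EGFR (-0.40 ± 0.07), AREG (-0.32 ± 0.06), another EGF-family ligand, and IGFBP3 were lower. Leaving out any 0dpi array, or 1dpi_IVM replicate 1 or 2, reduced the 2 rises to 1. IGFBP3, a carrier of insulin-like growth factors (-0.29), was not called without 0dpi replicate 2 (adjusted p = 0.125). FSCN2, an actin-bundling protein (0.47 ± 0.08), TRUB2, a mitochondrial pseudouridine synthase (0.47 ± 0.07), ACTR6, an actin-related protein (0.42 ± 0.06), and IPO11, an importin (0.40 ± 0.06), rose as well, with 1dpi at -0.12, -0.04, -0.12 and -0.09 against 0dpi. These last 4 lost their calls when arrays were centred on the hybridization controls.

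Of the genes of motile cilia, 11 of 41 were higher in the treated cord than in uninjured cord. Motile cilia of ependymal cells move the fluid of the central canal. TEKT4, a tektin of the ciliary microtubules, measured 4.96, 4.73 and 4.89 in 0dpi, 5.41, 5.53 and 5.52 in 1dpi_IVM, and 6.89 to 7.02 in 1dpi (0.63 ± 0.07 for 1dpi_IVM against 0dpi, adjusted p = 0.000615). TEKT2 measured 6.50, 6.38 and 6.63 in 0dpi, 6.87, 7.03 and 7.06 in 1dpi_IVM, and 8.47, 8.38 and 8.53 in 1dpi (0.48 ± 0.08, adjusted p = 0.00528). For both tektins the 3 groups were separate and 1dpi_IVM was intermediate. Beside these 11 calls (2.16% of all genes were higher) 0 cilia genes were lower, the list median was 0.14, and in 1dpi 35 were called higher and 1 lower (median 0.67). The count rested on the set of arrays. It was 5, 4 and 4 without 0dpi replicate 1, 2 or 3, and 6, 3 and 3 without 1dpi_IVM replicate 1, 2 or 3. With the hybridization controls it was 2 and the median 0.002. The list was added with the rise of some members known. DNALI1, a dynein light intermediate chain, was higher by 0.62 ± 0.15 but was no longer called without 0dpi replicate 2 (adjusted p = 0.132).

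A few neuronal and glial genes rose. NEFM, the medium neurofilament of axons, measured 9.66, 9.72 and 9.53 in 0dpi, 10.12, 10.16 and 10.08 in 1dpi_IVM, and 10.37, 10.34 and 10.34 in 1dpi (0.48 ± 0.06, adjusted p = 0.000962), with no call at a dim probe set. GFAP, the intermediate filament of glia, measured 9.92, 9.97 and 10.03 in 0dpi, 10.41, 10.42 and 10.43 in 1dpi_IVM, and 10.61, 10.59 and 10.58 in 1dpi (0.44 ± 0.05, adjusted p = 0.000444). The groups did not overlap for either gene, and 1dpi_IVM lay nearer to 1dpi than to 0dpi. SLC1A3, a glial glutamate carrier, rose by 0.47 ± 0.06 (adjusted p = 0.00126), CRMP1, a protein of growing axons, by 0.49 ± 0.09 (adjusted p = 0.00987), and RTN1, a reticulon of neurons, by 0.31 ± 0.05 (adjusted p = 0.00635). In 1dpi these 3 stood 0.87, 1.22 and 0.72 above 0dpi. Of 42 neuronal and synaptic genes 6 were higher and 0 lower (median 0.04), where 2.16% of all genes were higher and 3.67% lower. NEFM and RTN1 kept their calls, and those of STMN2, CHGA, NEFL and ELAVL4 were lost without some arrays. The count was 2 when any 0dpi array or 1dpi_IVM replicate 3 was left out, and 3 when 1dpi replicate 2 or 3, or 1dpi_IVM replicate 1 or 2, was left out. Of 18 ependymoglial genes 3 were higher (GFAP, SLC1A3 and CDH2, N-cadherin, which was not called without 1dpi_IVM replicate 2, adjusted p = 0.0748). The other 15 were not called, 8 of the 18 lay above 0 and 10 below, and the list median was -0.03. The rises thus belong to single genes and not to the list. With arrays centred on the hybridization controls 0 neuronal and 0 ependymoglial genes were called, so that NEFM, RTN1, GFAP and SLC1A3 lost their calls too, and the list medians were -0.09 and -0.17. None of 12 myelin genes was called. The summed signal of the neuronal markers, which include NEFM, STMN2, NEFL and ELAVL4, was higher in all 1dpi_IVM arrays than in all 0dpi arrays. The sum is thus not independent of these rises, and its part in them was not tested.

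Of the DNA replication genes, 10 of 39 were higher in 1dpi_IVM than in uninjured cord, where 2.16% of all genes were higher. MCM3, a subunit of the replicative helicase, measured 9.37, 9.49 and 9.43 in 0dpi, 9.97, 9.91 and 9.91 in 1dpi_IVM, and 8.30, 8.32 and 8.41 in 1dpi. All 1dpi_IVM arrays were above all 0dpi arrays (0.50 ± 0.05, adjusted p = 0.000479), and the other probe set of MCM3 was higher by 0.75. CCNE2, the cyclin of entry into S phase, which is outside this list, measured 7.28, 7.50 and 7.44 in 0dpi, 7.96, 7.87 and 7.99 in 1dpi_IVM, and 5.82, 6.07 and 6.19 in 1dpi (0.53 ± 0.09, adjusted p = 0.00901). UHRF1, which keeps DNA methylation after replication, rose by 0.44 ± 0.05 (adjusted p = 0.00133) and the helicase subunit MCM6 by 0.39 ± 0.05 (adjusted p = 0.00219), against -1.57 and -0.81 in 1dpi. Of 39 replication genes 10 were higher (MCM2, MCM3, MCM5, MCM6, MCM7, UHRF1, CDC6, RFC4, FEN1 and PCNA) and 0 lower, and the list median of 0.16 was the highest of the 37 lists. Without 0dpi replicate 2 or 1dpi_IVM replicate 2 the count was 5, and without 1dpi_IVM replicate 3 it was 6. With arrays centred on the hybridization controls 0 were called and the median was 0.02, and with the poly-A spike-ins 20 were called. In 1dpi, 0 of the 39 were called higher and 35 lower (median -0.52).

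Of the mitotic genes, 5 of 42 were higher in 1dpi_IVM than in 0dpi, where 2.16% of all genes were higher. The other 37 were not called. AURKA, a kinase of the mitotic spindle, measured 8.38, 8.37 and 8.38 in 0dpi, 8.79, 8.77 and 8.81 in 1dpi_IVM, and 6.21, 6.21 and 6.34 in 1dpi (0.41 ± 0.05, adjusted p = 0.00106). CCNB1, cyclin B1, the partner of CDK1 in mitosis, measured 8.93, 8.93 and 8.96 in 0dpi, 9.27, 9.30 and 9.29 in 1dpi_IVM, and 6.40, 6.38 and 6.52 in 1dpi (0.35 ± 0.05, adjusted p = 0.00341). The spread within each group was far below the step between groups for both genes. Of the other 2 probe sets of CCNB1, 1 rose by 0.35 and 1 was not called (0.05). With CKS1B, a partner of cyclin-dependent kinases (0.37 ± 0.06), CCNA2 (0.33 ± 0.06) and CCNB3 (0.23 ± 0.06, lost without each of the 9 arrays), these made up the rises, 0 genes were lower, and the list median was 0.07. That median was -0.07 under the hybridization centring, where 0 of the 42 were called. In 1dpi 1 was called higher and 38 lower (median -0.86). MKI67, a marker of dividing cells, was not called, with 9.04, 9.02 and 8.92 in 0dpi and 9.17, 8.98 and 9.04 in 1dpi_IVM (0.08 ± 0.07, adjusted p = 0.624).

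Of the cholesterol synthesis genes, 3 of 19 were higher, where 2.16% of all genes were higher. INSIG1, a sterol-regulated protein of the endoplasmic reticulum, measured 8.62, 8.65 and 8.68 in 0dpi, 9.32, 9.23 and 9.19 in 1dpi_IVM, and 6.11, 6.47 and 6.42 in 1dpi (0.60 ± 0.09, adjusted p = 0.0032). HMGCS1, an early enzyme of the pathway, measured 8.87, 8.88 and 8.93 in 0dpi, 9.36, 9.46 and 9.43 in 1dpi_IVM, and 7.77, 7.86 and 7.81 in 1dpi (0.52 ± 0.05, adjusted p = 0.000216). The 3 groups were separate for both genes. CYP51A1, the lanosterol demethylase, rose by 0.38 ± 0.06 (adjusted p = 0.00355). The other 16 were not called, and the list had a median of 0.10 that turned to -0.04 under the hybridization centring, and in 1dpi 0 were called higher and 14 lower (median -0.44). LIPG, endothelial lipase, rose by 0.50 ± 0.07 and ESRRG, an orphan nuclear receptor, by 0.48 ± 0.08, against -1.12 and -0.67 in 1dpi. A further pair of this order did not hold its calls. CYP26A1, which breaks down retinoic acid (0.60 ± 0.12), and DCK, a kinase of nucleotide salvage (0.54 ± 0.11), lost them without 0dpi replicate 2 (adjusted p = 0.0621 and 0.0839).

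A minority of muscle genes differed, in both directions and by small amounts. MYL2, a myosin light chain of slow muscle and heart, measured 10.26, 10.18 and 10.25 in 0dpi, 9.87, 9.95 and 9.90 in 1dpi_IVM, and 12.45, 12.45 and 12.41 in 1dpi (-0.32 ± 0.05, adjusted p = 0.00342). TNNT1 and TNNI1, troponins of slow muscle (-0.36 ± 0.06 and -0.31 ± 0.06), MYL3 (-0.26 ± 0.05) and MYOZ2, a protein of the Z disc (-0.34 ± 0.05), were lower as well, and with MYL4, TNNC1 and MYBPC1, whose calls were lost without some arrays, they made up the falls. TTN, the giant spring protein titin, rose by 0.33 ± 0.04 (adjusted p = 0.00196), with 11.02, 11.04 and 11.02 in 0dpi, 11.40, 11.34 and 11.33 in 1dpi_IVM, and 11.95, 11.95 and 11.93 in 1dpi. Of 44 muscle genes 8 were lower and 3 higher with a median of 0.01, where all 44 were called higher in 1dpi (median 0.95). Among all genes, 3.67% were lower and 2.16% higher in 1dpi_IVM. Leaving out 0dpi replicate 2, 0dpi replicate 3 or 1dpi_IVM replicate 2 gave 5 falls, and leaving out 0dpi replicate 2, 1dpi_IVM replicate 1 or 1dpi_IVM replicate 2 gave 1 rise. The summed signal of the muscle markers was 15.58 to 15.61 in 0dpi and 15.60 to 15.62 in 1dpi_IVM.

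Most calls among skin, cartilage and vessel genes were lost without some arrays. Of 22 epidermal and epithelial genes 5 were lower (GRHL3, TGM1, ELF3, DSC2 and EPCAM) and 0 higher, where 3.67% of all genes were lower and 2.16% higher. GRHL3, a transcription factor of the skin barrier (-0.33 ± 0.05, adjusted p = 0.00266), and TGM1, which crosslinks the skin envelope (-0.28 ± 0.05, adjusted p = 0.00822), kept their calls without each array. The count was 3 when 0dpi replicate 2 was left out, and 2 for 0dpi replicate 3 or 1dpi_IVM replicates 2 and 3. Of 14 cartilage genes 4 were lower (COL9A2, CILP, MATN2 and COL9A1), a count that was 0 when 0dpi replicate 2 was left out, 1 for 0dpi replicates 1 and 3 and 1dpi_IVM replicates 1 and 2, and 2 for 1dpi replicate 2 and 1dpi_IVM replicate 3. Of 16 endothelial genes, LYVE1 and VWF were lower and FLT1 higher, and the falls numbered 0 when 0dpi replicate 2 was left out and 1 for 0dpi replicate 3 and 1dpi_IVM replicates 2 and 3. Centring on the poly-A spike-ins gave 1 epithelial, 0 cartilage and 0 endothelial falls. Centring on the hybridization controls gave 2, 0 and 2. ALAS2, an enzyme of heme synthesis in red cells, fell by 0.33 ± 0.05 (adjusted p = 0.0027), against 1.62 above 0dpi in 1dpi, and was the only called gene of 17 in the erythrocyte list. The summed epithelial, cartilage, endothelial and erythrocyte signals, given above, were all lower in every 1dpi_IVM array than in every 0dpi array. These sums include the called genes EPCAM, COL9A1, VWF and ALAS2, so they are not independent of the calls, and their part in them was not tested.

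In the BMP and TGF-beta pathway 7 of 36 genes were lower and 0 higher, where 3.67% of all genes were lower and 2.16% higher. TGIF1, a repressor of TGF-beta targets, measured 7.45, 7.55 and 7.61 in 0dpi, 6.67, 6.68 and 6.64 in 1dpi_IVM, and 7.83, 7.86 and 7.94 in 1dpi (-0.87 ± 0.06, adjusted p = 1.47e-05), with -0.77 at its other probe set. ID2, a target of BMP signals, fell by 0.50 ± 0.07 (adjusted p = 0.00185). The ligands BMP2 (-0.37 ± 0.08, adjusted p = 0.0293) and BMP7 (-0.32 ± 0.07, adjusted p = 0.0201) lost their calls without 0dpi replicate 2 (adjusted p = 0.106 and 0.0829), and so did the receptor TGFBR2 (adjusted p = 0.0886) and LTBP1, which stores TGF-beta in the matrix (adjusted p = 0.15). The receptor BMPR1B was not called without 1dpi_IVM replicate 2 (adjusted p = 0.123). The count was 3, 2 and 4 without 0dpi replicate 1, 2 or 3, and 3, 2 and 3 without 1dpi_IVM replicate 1, 2 or 3. The list median was -0.05, with 14 genes above 0 and 22 below. With the poly-A spike-ins 3 were lower and 1 higher (median 0.05). With the hybridization controls 5 were lower and 0 higher (median -0.18). SOSTDC1, a secreted BMP and Wnt antagonist outside the list, rose by 0.58 ± 0.07 (adjusted p = 0.000899).

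The receptors on which ivermectin acts were not called. GLRA1, a glycine receptor alpha subunit, measured 3.78, 4.17 and 4.13 in 0dpi and 3.99, 4.13 and 4.06 in 1dpi_IVM (0.03 ± 0.10, adjusted p = 0.918). GLRA2 measured 4.41, 4.40 and 4.71 against 4.79, 4.35 and 4.72 (0.11 ± 0.12, adjusted p = 0.692), and GLRA3 3.48, 3.74 and 3.88 against 3.97, 3.49 and 3.89 (0.08 ± 0.13, adjusted p = 0.82). The beta subunit GLRB measured 5.48, 5.54 and 5.42 against 5.56, 5.47 and 5.44 (0.01 ± 0.06, adjusted p = 0.943). Groups overlapped for all 4 genes. GLRA3 and GLRA1 were dim, with means of 3.70 and 4.03 in 0dpi against 3.47 for the brightest negative control. In 1dpi, GLRA2 (0.45, adjusted p = 0.0083) and GLRB (0.18, adjusted p = 0.020) were called higher than in 0dpi on the same probe sets. Of 32 chloride channel, glycine receptor and GABA receptor genes 0 were called in either direction, with a median of 0.02, and in 1dpi 9 were called higher and 4 lower. Among all genes only 5.83% were called in 1dpi_IVM against 0dpi, so 0 of 32 lies near that share and says little of these genes. Lists of 41 proteasome, 58 ribosomal protein and 66 splicing genes likewise had 0 calls, with medians of 0.01, -0.005 and 0.05. In 1dpi, 2 proteasome genes were called higher and 34 lower, 5 ribosomal protein genes higher and 5 lower, and 3 splicing genes higher and 50 lower, beside 25.3% of all genes higher and 29.5% lower. Of 77 ribosome biogenesis genes 1 was higher (NOP10) and 1 lower (POLR1A), neither of which kept its call without every array, and 57 were called lower in 1dpi. Of 47 sodium, potassium and calcium channel genes CACNA1S was higher and ITPR3 lower, and neither call held without 1dpi_IVM replicate 2 (adjusted p = 0.152 and 0.0898). Of 46 oxidative phosphorylation genes 1 was higher (UQCRH, of complex III, 0.30 ± 0.05), and of 37 genes of histone deacetylases and their partners 1 was lower (RCOR1, not called without 0dpi replicate 2, adjusted p = 0.14). Of 47 heat shock and unfolded protein response genes 4 were higher and 4 lower with a median of 0.01, among them the chaperone HSP90AA1 (0.26 ± 0.05) and the disulfide isomerase PDIA4 (0.26 ± 0.05). The rises numbered 2 when 0dpi replicate 1, 0dpi replicate 2 or 1dpi_IVM replicate 2 was left out, and the falls 2 for 0dpi replicates 2 and 3, 1dpi replicate 2 and each 1dpi_IVM array.

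**Figure D5:**
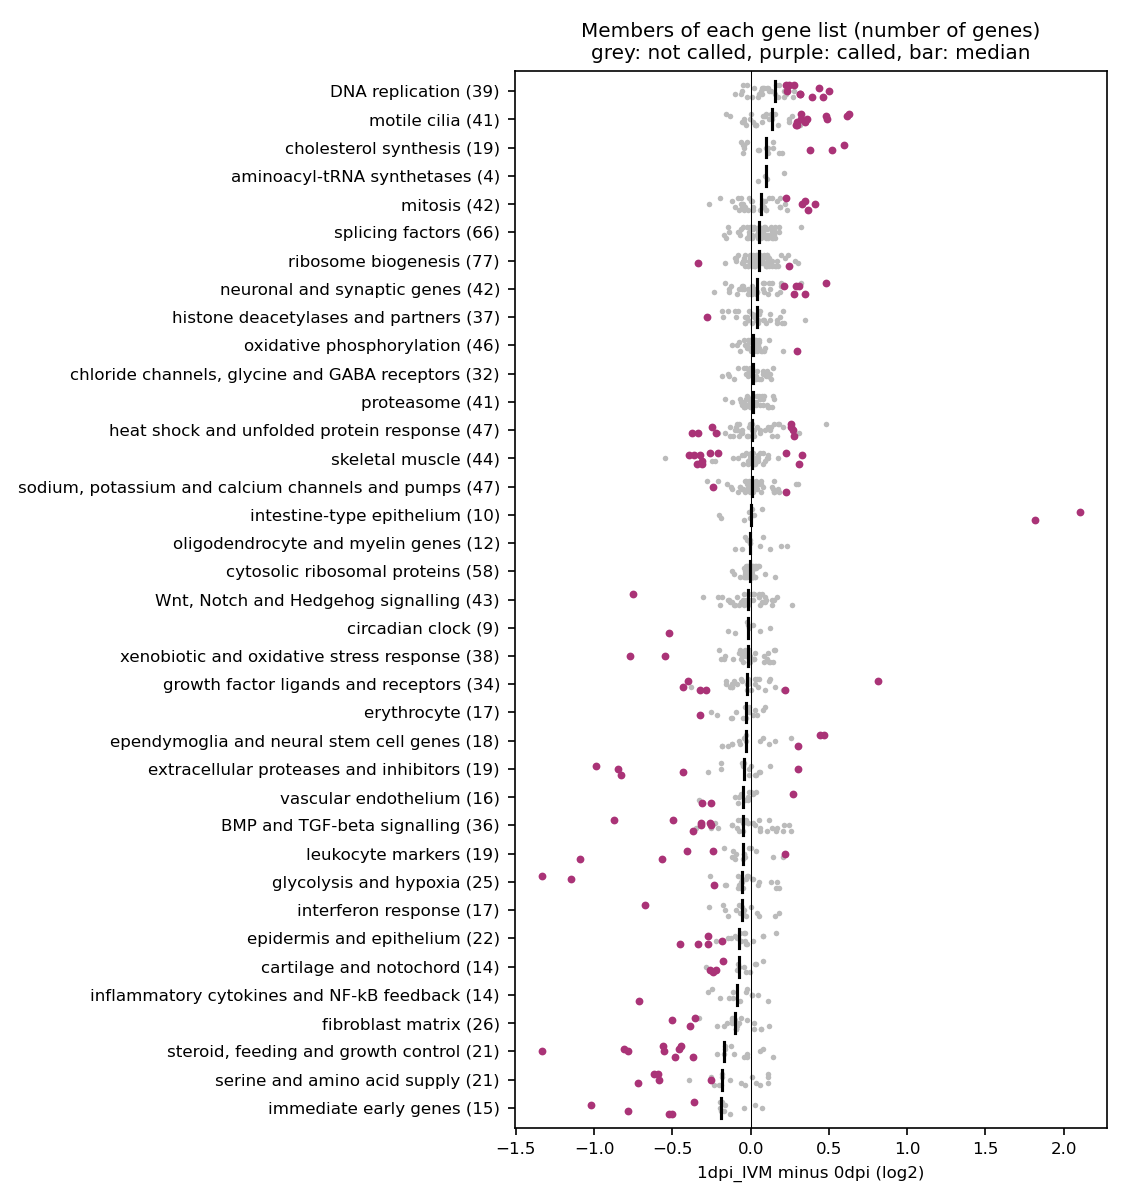
The log2 difference of 1dpi_IVM minus 0dpi (horizontal axis) for each measured gene of 37 lists (vertical axis, with the number of genes), called genes in purple and a bar at each list median. Medians ran from -0.19 for immediate early genes to 0.16 for DNA replication.

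Of the 32 probe sets that differed by 2-fold or more, 21 had no gene symbol. Among all 20035 tested probe sets 9084 had none, and among the 1122 called 511 had none. The probe set axo24465-r_at measured 5.95, 6.14 and 6.04 in 0dpi, 3.27, 3.48 and 3.33 in 1dpi_IVM, and 3.12, 3.18 and 3.21 in 1dpi, so that the means of both injured groups lay below that of the brightest negative control (3.47). Only a bound can be given for it. Against that control the 0dpi mean was at least 5.94-fold higher. The probe set axo22435-f_at measured 10.43, 10.48 and 10.44 in 0dpi, 7.91, 8.05 and 8.03 in 1dpi_IVM, and 12.49, 12.46 and 12.43 in 1dpi (-2.45 ± 0.05, adjusted p = 1.04e-08). Among rises without a symbol, axo25463-f_at was higher by 1.26 ± 0.08 and axo22559-f_at by 1.11 ± 0.07, with 2.36 and 1.97 in 1dpi.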

How the data were processed

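RNA of 9 pools of axolotl spinal cord (3 groups of 3 arrays) was hybridized to custom Affymetrix arrays. The authors deposited log2 signals. Per the labels, these came from RMA in Affymetrix Expression Console (version not given in the sources used here). RMA corrects background, brings all arrays to 1 distribution and summarizes each probe set. Values ran from 2.65 to 14.6 with 0 missing, and 0 arrays were identical. An array gives no read depth, and the number of arrays limits precision. The 45 controls (24 poly-A, 18 hybridization and 3 negative) were left out, and 20035 probe sets were tested with no filter. The brightest negative control averaged 3.47, and 1418 probe sets (7.08%) were dimmer. The annotation of the array gave 10951 probe sets 1 symbol each (8639 genes) and none to 9084. For 1740 genes with several probe sets, the one with the highest mean over all arrays was used.

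The comparison was made with limma 3.58.1 in R 4.3.3, with 1 coefficient per group over 9 arrays, moderated variances, 2-sided tests and Benjamini-Hochberg adjustment over 20035 probe sets, called at an adjusted p below 0.05. The study's methods name an uncorrected p and no tool. The model was tested on simulated data with known changes, independent noise and no shift of whole arrays. That test therefore cannot show how the calls depend on centring. The p-values measure the spread between pooled arrays, not animals. Lists are described by counts and medians without a set test. The members, the 37 lists and the naming rule were chosen with earlier results of these data known. The rule took the 12 largest rises and 12 largest falls among called genes with groups that do not overlap, the 8 largest each way among those also called in the opposite and in the same direction in 1dpi, 5 each way among those not called and within 0.3 in 1dpi, up to 3 called members of each list, and GLRA1, GLRA2, GLRA3, GLRB, FOS, JUN, BMP2 and MKI67. Other called members of lists, and genes with no list that the rule does not cover, were named after their values were seen. Alternatives were the 6 arrays alone, trended and robust variances, a replicate block, filters on dim probe sets, other centrings, other thresholds, the mean of a gene's probe sets, and each array left out.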

Additional observations from a re-analysis of the deposited data

How the results depend on the processing

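Of 1122 called probe sets (452 higher, 670 lower), trended and robust variances gave 1694 (777 higher), centring on the poly-A spike-ins 1952 (1609 higher, 343 lower), centring on the hybridization controls 573 (46 higher), limma's test against a 1.2-fold difference 140 (35 and 105), and an unadjusted p below 0.05 with 2-fold 32 (7 and 25). Leaving out single arrays gave 640 to 1112 called, 218 to 458 higher and 422 to 654 lower, with 640 without 0dpi replicate 2 and 696 without 1dpi_IVM replicate 2. The centrings move all differences by construction, and for the other settings the cause was not tested. Replicate numbers did not pair the arrays (deviations of equal numbers correlated at -0.18, -0.08 and -0.17), and a replicate block called 809, of which 291 were higher and 518 lower. Of the named genes, 5 that were not called changed sign. With the hybridization controls GLRA1 was -0.10, GLRA2 -0.021, GLRA3 -0.052, GLRB -0.12 and MKI67 -0.057. With single arrays left out GLRA1 ran from -0.093 to 0.10, GLRA3 from -0.029 to 0.23 and GLRB from -0.023 to 0.041. Of the 109 named genes, 43 lost their call with the hybridization controls, 14 with the poly-A spike-ins, 12 with the replicate block and 8 with the 6 arrays alone. Differences below 0.17 were not called at this number of arrays.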

Other observations

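Some neuropeptide and neuronal genes in no list were also called. Apart from PENK and GCG they were picked after their values were seen, so they say nothing of such genes in general. PENK, the precursor of the enkephalins, measured 6.82, 6.97 and 6.79 in 0dpi, 5.67, 5.58 and 5.90 in 1dpi_IVM, and 8.95, 8.91 and 8.97 in 1dpi (2.21-fold lower than 0dpi, log2 -1.14 ± 0.08, adjusted p = 3.32e-05). GRP, a bombesin-like peptide (-0.41 ± 0.07, adjusted p = 0.00929), and VGF, a granin-like protein of secretory vesicles (-0.41 ± 0.06, adjusted p = 0.00355), were lower, while in 1dpi they stood 1.25 and 0.42 above 0dpi. TAC1, the precursor of substance P, was lower by 0.43 ± 0.09 (adjusted p = 0.0237) but was not called without 1dpi_IVM replicate 2 (adjusted p = 0.0837). ISL1, a transcription factor of motor neurons, was higher by 0.37 ± 0.06 (adjusted p = 0.00483), as was GCG, the glucagon precursor (0.53 ± 0.06, adjusted p = 0.000624), though not at a dim probe set of GCG. The summed signal of the neuronal markers was higher in 1dpi_IVM than in 0dpi, and its part in these values was not tested.

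Single genes outside the lists, also picked after their values were seen, were called as well. GMNN, geminin, which prevents repeated replication, rose by 0.36 ± 0.05 (adjusted p = 0.0032) and E2F3, a transcription factor of S phase, by 0.36 ± 0.06 (adjusted p = 0.00532), with -1.45 and -1.55 in 1dpi. Both lost their calls when arrays were centred on the hybridization controls. ABCA1, a carrier that exports cholesterol, fell by 0.53 ± 0.05 (adjusted p = 0.000294), against 0.56 above 0dpi in 1dpi, and a further probe set of it was not called. SOCS1, a feedback inhibitor of cytokine signals, fell by 0.37 ± 0.05 (adjusted p = 0.00263), against 0.93 in 1dpi.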
